A study of Mus musculus with 36 samples.

Results

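Population C of sorted mouse brain cells was set against the population labelled Neg, over 12 of the series' 36 RNA-seq libraries. Titles alone chose the members: 6 libraries of C and 6 of Neg, with 2 of each population from each brain region. The titles give the region only as a number, named here olfactory bulb, cortex and brainstem in that order. Replicate numbers are not in the titles. All 12, per the labels, came from brain tissue of C57/Bl6 mice and all carry the cell type astrocyte, Neg included. The labels give neither age, genotype nor treatment, and they do not say which surface antigens defined C or what Neg stands for. The study is known to have sorted cells with a fluorescent reporter driven by the promoter of Aldh1l1, an enzyme gene of astrocytes, and with antibodies to the products of Itgav, Cd63 and Tfrc. The series' design text speaks of cell lines, whereas the sample labels name brain tissue and no culture. Whether libraries sharing a group are from different animals is not stated, so p-values reflect library-to-library spread alone, and this may be technical.

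Astrocytes are glial cells that take up glutamate and GABA released at synapses, buffer potassium, and wrap blood vessels with endfeet rich in water channels. They also make much of the cholesterol and apolipoprotein E of the brain, store glycogen and secrete proteins that act on synapses. Slc1a2, Aqp4, Fgfr3 and Mlc1, the markers used to check the label of C, cover this biology: a glutamate transporter, a water channel, a growth factor receptor and an endfoot membrane protein.

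The C libraries held more detectable genes than the Neg libraries. Between 8703 and 9975 genes reached 1 FPKM (fragments per kilobase of transcript, scaled to the mapped fragments of the library) in the C libraries, against 2103 to 7462 in the Neg libraries. The mean difference was 4301.5 genes, with p = 0.00926 in a two-sided exact permutation test within regions, the smallest value its 216 arrangements can give. Coverage per FPKM, a measure in the deposited tables that follows sequencing depth, was 1.93 to 2.36 in C and 1.38 to 1.70 in Neg, and nuclear FPKM summed to 87398 to 163132 in C and 24130 to 63064 in Neg. Of the Neg libraries 3 stood apart with fewer than 5000 genes, cortex replicate 2 (3697), brainstem replicate 1 (2872) and brainstem replicate 2 (2103), so counts below are also given without these sparse libraries. RNA of sex-linked genes differed too. Xist, the noncoding RNA of the inactive X chromosome, was at 7.62 to 18.7 FPKM in all 6 C libraries, at 27.6 and 29.2 FPKM in Neg olfactory bulb, and at or under 0.0135 FPKM in the 4 Neg libraries of cortex and brainstem. Summed FPKM of the 4 Y-linked genes Ddx3y, Eif2s3y, Kdm5d and Uty was 3.80 to 11.4 in C olfactory bulb replicate 2, cortex replicate 1 and brainstem replicate 1, 3.44 to 8.53 in those same 4 Neg libraries, and 0 in the other 3 C and the other 2 Neg libraries. Xist and Y-linked RNA were thus listed together in 3 C libraries. The part of sex in the differences below was not tested.

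Across the transcriptome the direction of the comparison depended on scale. Of 11490 genes tested in limma on log2(FPKM + 1) with region as a block, 6908 were higher in C and 23 lower as deposited, which is 60.1% and 0.2% of the genes tested, and the median log2 difference over all genes was 0.97. After quantile normalization, which gives every library the same distribution of values, the median was -0.07, with 938 genes (8.16%) higher and 777 (6.76%) lower in C. All 938 genes higher after quantile normalization were also higher as deposited (8.16% higher on both scales), and 22 genes (0.191%) were lower on both. Below, a gene "rose" or "fell" in C only if it was called on both scales at a Benjamini-Hochberg adjusted p under 0.05. This rule does not remove the shift of the whole distribution. Every gene called higher after quantile normalization "rose", whereas only 22 of the 777 called lower there "fell". Values are given as deposited unless stated otherwise. In 2362 of the 11490 genes all 6 C libraries lay above all 6 Neg libraries, and in 2 the reverse held. Groups without overlap and with C higher were thus common, and single genes below are read beside this count. Without the 3 sparse Neg libraries 481 genes were higher and 55 lower on both scales, among them 403 of the 938 and 15 of the 22. Genes called in either direction as deposited then numbered 2205, against 6931 with no library left out. After quantile normalization the totals were 821 and 1715. List counts without the 3 libraries are read beside these lower totals, and not beside 60.1% or 8.16%.

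**Figure D1:**
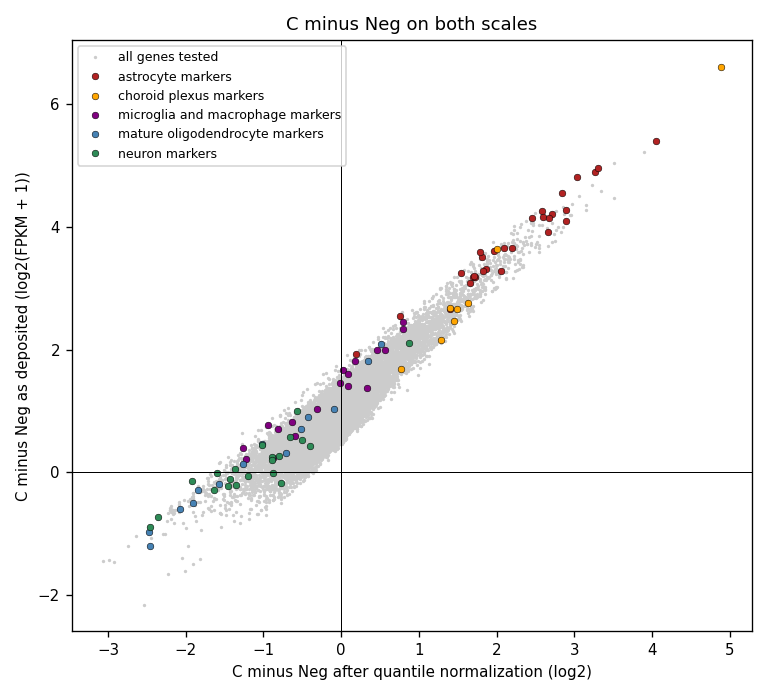
Each point is a gene; the x axis gives C minus Neg after quantile normalization and the y axis C minus Neg on deposited log2(FPKM + 1), with marker lists in colour. The cloud is shifted upward on the y axis by a median of 0.97 and lies around 0 on the x axis; most astrocyte markers lie at the upper right and most neuron and mature oligodendrocyte markers to the left of 0.

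The 4 markers of the label rose in C by between 3.19 and 4.16 on the log2 scale. Slc1a2 encodes GLT-1, the main glutamate transporter of the forebrain, and is a protein-coding gene on chromosome 2 from 102658659 to 102790784 (GRCm38, plus strand). It was at 883 and 560 FPKM in the C libraries of the olfactory bulb, 1520 and 1626 in C cortex and 431 and 626 in C brainstem, against 91.4 and 97.8, 340 and 165, and 54.7 and 18.7 FPKM in Neg of the same regions. The lowest C library lay above the highest Neg library, with cortex at the top in both populations. The log2 difference was 3.19 ± 0.37 (SE; limma adjusted p = 7.03e-06) and 1.72 ± 0.28 after quantile normalization (adjusted p = 0.000804).

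Aqp4, the water channel of astrocyte endfeet, varied least of the 4 among C libraries. It was at 90.4 and 74.2 FPKM in C olfactory bulb, 59.9 and 79.5 in C cortex and 80.4 and 74.7 in C brainstem, against 6.16 and 10.1, 5.46 and 2.10, and 6.21 and 3.60 FPKM in Neg. The groups did not overlap, and the mean was 76.5 ± 10.02 FPKM in C and 5.60 ± 2.73 FPKM in Neg (SD, n = 6 each). Its log2 difference was 3.65 ± 0.37 (SE) as deposited and 2.10 ± 0.29 after quantile normalization.

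Fgfr3 encodes a fibroblast growth factor receptor of astrocytes and their precursors (chromosome 5, 33721674 to 33737068, GRCm38). It was at 23.2 and 14.2 FPKM in C olfactory bulb, 38.4 and 45.9 in C cortex and 24.1 and 29.7 in C brainstem, against 1.77 and 2.31, 1.58 and 0.612, and 0.998 and 0.679 FPKM in Neg. Every C library was again above every Neg library, and the cortex was highest in C but not in Neg. The log2 difference was 3.66 ± 0.38. Mlc1, whose product sits in endfoot membranes and whose human counterpart is mutated in a leukoencephalopathy with cysts, lies on chromosome 15 from 88955884 to 88979007. Its lowest, median and highest values were 37.9, 68.3 and 88.6 FPKM in the C libraries, against 1.26, 2.72 and 4.94 FPKM in the Neg libraries. No region stood out in either population, and the log2 difference was 4.16 ± 0.40 (adjusted p = 3.13e-06 for both Fgfr3 and Mlc1). As deposited, the call of each of the 4 markers was kept under all 26 other settings, quantile normalization among them. These settings also left out each library, each region and the 3 sparse Neg libraries, on the deposited values only.

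The promoters of 3 markers that rose and of a myelin gene that fell are shown with matches to TTGGC, the half-site of nuclear factor I proteins, which act in astrocyte development. Sequences are RefSeq windows from 250 bases before to 50 bases after the start of each gene in that table, given on the gene's strand in GRCm38.p6; that start can differ from the span printed above, and for Slc1a2 it lies inside it; capitals mark TTGGC or its complement GCCAA. Slc1a2 (chr2:102706188-102706487, plus strand) and Mlc1 (chr15:88978504-88978803, minus strand) each hold 1 match, Fgfr3 (chr5:33721474-33721773, plus strand) holds 0, and Mobp (chr9:120149492-120149791, plus strand) holds 2.
Slc1a2: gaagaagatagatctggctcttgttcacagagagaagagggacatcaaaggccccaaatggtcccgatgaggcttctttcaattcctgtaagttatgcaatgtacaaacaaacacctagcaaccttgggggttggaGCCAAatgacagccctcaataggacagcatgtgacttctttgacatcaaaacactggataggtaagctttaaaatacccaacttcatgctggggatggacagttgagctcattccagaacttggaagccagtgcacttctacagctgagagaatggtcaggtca
Mlc1: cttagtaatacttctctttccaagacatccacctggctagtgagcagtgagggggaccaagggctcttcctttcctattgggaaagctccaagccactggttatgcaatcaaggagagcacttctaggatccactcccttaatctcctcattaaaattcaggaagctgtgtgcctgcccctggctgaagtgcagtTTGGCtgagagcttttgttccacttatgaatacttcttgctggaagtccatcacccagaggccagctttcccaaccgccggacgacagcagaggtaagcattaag
Fgfr3: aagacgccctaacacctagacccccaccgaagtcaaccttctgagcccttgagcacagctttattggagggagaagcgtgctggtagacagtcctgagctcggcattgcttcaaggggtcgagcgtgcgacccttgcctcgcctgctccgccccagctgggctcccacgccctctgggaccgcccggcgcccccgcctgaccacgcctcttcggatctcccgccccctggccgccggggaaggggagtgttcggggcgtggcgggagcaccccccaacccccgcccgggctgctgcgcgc
Mobp: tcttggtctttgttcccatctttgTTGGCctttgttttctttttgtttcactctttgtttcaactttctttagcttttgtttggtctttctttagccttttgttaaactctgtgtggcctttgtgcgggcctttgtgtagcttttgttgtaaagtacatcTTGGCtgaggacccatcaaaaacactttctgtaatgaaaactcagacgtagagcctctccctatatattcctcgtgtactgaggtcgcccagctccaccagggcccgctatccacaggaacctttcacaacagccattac
The motif is common. It occurs in 47.0% of 27025 promoters of this table and in 49.95% of the 9051 promoters matched to tested genes. Among genes that rose on both scales 56.9% of 742 matched promoters hold it, and among genes that fell 42.9% of 14. The SOX core ACAAT, searched on both strands, occurs in 19.7% of promoters of tested genes and in 19.5% of those of genes that rose, and the RBPJ core GTGGGAA in 6.19% and 7.01%. Among the 14 matched promoters of genes that fell, 6 (42.9%) hold ACAAT and 0 hold GTGGGAA. A match is a run of letters and not a measured binding site.

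Aldh1l1 and Gfap, which label astrocytes in most studies of these cells, rose too. The study sorted with a reporter driven by the Aldh1l1 promoter, so Aldh1l1 RNA may not be independent of the sort. This was not tested. Aldh1l1, a folate enzyme (chromosome 6, 90486427 to 90600203), was at 15.4 and 8.15 FPKM in C olfactory bulb, 18.7 and 19.8 in C cortex and 14.5 and 18.6 in C brainstem, against 2.00 and 1.75, 1.13 and 0.0912, and 0.172 and 0 FPKM in Neg. Its groups did not overlap, and 3 of the 6 Neg libraries lay at or under 0.172 FPKM. The log2 difference was 3.28 ± 0.38 and 2.05 ± 0.27 after quantile normalization. Gfap, the intermediate filament of astrocytes, had a lowest, median and highest value of 22.0, 26.8 and 61.3 FPKM in C and 0.319, 2.92 and 5.24 FPKM in Neg, with no overlap and a log2 difference of 3.32 ± 0.42. Both calls as deposited held under all 26 other settings, which left out libraries and regions on the deposited values only.

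**Figure D2:**
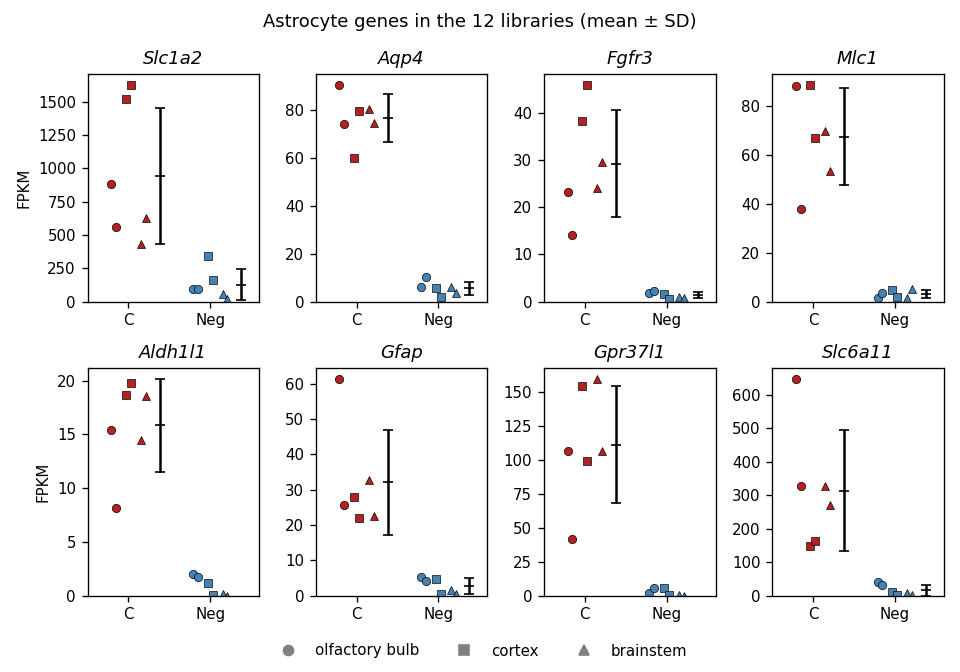
FPKM of 8 astrocyte genes in each library, C left and Neg right of each panel, with the region as the symbol; bars give mean ± SD (n = 6) and are left out where a library is listed at 0. In every panel all 6 C libraries lie above all 6 Neg libraries, for Aqp4 at 59.9 to 90.4 against 2.10 to 10.1 FPKM.

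The astrocyte marker list holds the markers above, Aldh1l1 and Gfap, and several genes named below. It was chosen with earlier results of these data known, so its counts are not independent of those genes. Of its 29 members, all tested, 29 were higher in C as deposited and 27 after quantile normalization, with 0 lower on either scale. The list's median log2 difference was 3.65 as deposited and 2.10 after quantile normalization, beside 0.97 and -0.07 for all genes tested. Its summed level was 4024 to 8395 FPKM in the C libraries and 234 to 1116 FPKM in the Neg libraries. Without the 3 sparse Neg libraries the counts were again 29 and 27. In bulk samples such as these, fewer cells of a type and less RNA per cell cannot be told apart.

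The 12 largest increases that met the naming rule, out of 820 genes, were led by Ttr and by genes of astrocyte membranes and secretion. Ttr encodes transthyretin, a carrier of thyroid hormone made in the choroid plexus, and is described with that tissue below. Gpr37l1, an orphan receptor of astrocytes (chromosome 1, 135160234 to 135167681), was at 107 and 41.2 FPKM in C olfactory bulb, 154 and 98.8 in C cortex and 159 and 107 in C brainstem, against 1.98 and 5.64, 5.69 and 0.320, and 0.228 and 0 FPKM in Neg. The groups lay far apart in each region, with a log2 difference of 5.40 ± 0.52 and 4.05 ± 0.37 after quantile normalization (limma adjusted p = 2.05e-05). Fxyd1, phospholemman, a regulator of the sodium pump, was at 75.0, 208 and 267 FPKM in C (lowest, median, highest) against 0, 1.04 and 50.2 FPKM in Neg. The highest Neg library thus came close to the lowest C library, and the log2 difference was 5.22 ± 0.81.

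Htra1, a secreted serine protease, was at 18.7, 43.9 and 78.9 FPKM in C and at 0.0544, 1.20 and 1.82 FPKM in Neg (lowest, median, highest). Ntsr2, the low-affinity neurotensin receptor of astrocytes, was at 156, 265 and 363 FPKM in C and at 0.282, 13.4 and 42.4 FPKM in Neg. For Cmtm5, a membrane protein gene of glia, the values were 60.7, 97.1 and 127 FPKM in C and 0, 2.47 and 13.1 FPKM in Neg. In each of these genes the groups were apart, and their log2 differences were 4.51 ± 0.38, 4.56 ± 0.58 and 4.68 ± 0.48. Ddt, which encodes a relative of macrophage migration inhibitory factor, was at 17.8 to 56.5 FPKM in C and at or under 0.273 FPKM in 5 Neg libraries, 3 of them listed at 0, but at 13.8 FPKM in Neg olfactory bulb replicate 2. Grcc10 was listed at 0 in all 6 Neg libraries and in C brainstem replicate 2, and at 24.5 to 52.8 FPKM in the other 5 C libraries, so no fold is given. The remaining genes of the 12, Slc6a11, Lcat, Clu and Apoe, belong to the groups that follow.

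Genes of transmitter uptake and metabolism rose in 10 of 16 members and fell in 0 (16 higher as deposited, 10 after quantile normalization and 8 without the 3 sparse libraries), with a median log2 difference of 3.00 as deposited and 1.46 after quantile normalization. Slc6a11, the GABA transporter GAT-3 of astrocytes, was at 647 and 327 FPKM in C olfactory bulb, 149 and 164 in C cortex and 327 and 270 in C brainstem, against 40.3 and 32.0, 11.2 and 0.914, and 7.04 and 1.03 FPKM in Neg. C and Neg were apart in each region, and in C the cortex was lowest. The log2 difference was 4.96 ± 0.52. Slc1a3, the glutamate transporter GLAST, was at 124, 251 and 347 FPKM in C and 2.18, 19.1 and 33.1 FPKM in Neg (4.15 ± 0.43). Its groups did not overlap either.

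The glycine transporter gene Slc6a9 differed in its regional order from Slc1a2. It was highest in C brainstem, at 78.2 and 46.7 FPKM, then in C olfactory bulb at 55.9 and 28.1 and in C cortex at 14.5 and 10.96, against 0.0264 and 0 FPKM in Neg brainstem, 2.58 and 8.94 in Neg olfactory bulb and 0.850 and 0 in Neg cortex. Its groups did not overlap, with a log2 difference of 4.01 ± 0.49. Among the other members that rose were Slc38a3, a glutamine transporter, by 2.31 after quantile normalization, and Glud1, glutamate dehydrogenase, by 1.28.

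Genes of endfoot membranes and ion homeostasis rose in 12 of 17 members (16 higher as deposited, 12 after quantile normalization and 11 without the 3 sparse libraries; 0 lower in each), with medians of 3.49 and 1.79. Besides Aqp4, Mlc1 and Fxyd1 these included the adhesion molecule gene Hepacam, the scaffold gene Slc9a3r1, the dystroglycan gene Dag1, the connexin genes Gja1 and Gjb6, the potassium channel gene Kcnj10, the bicarbonate cotransporter gene Slc4a4 and the sodium pump subunit gene Atp1b2. Hepacam, whose product holds the Mlc1 protein at the membrane, was at 41.2, 69.4 and 103 FPKM in C and at 0, 5.05 and 14.4 FPKM in Neg, a log2 difference of 3.69 ± 0.51. Slc9a3r1 was at 8.41, 29.8 and 46.3 FPKM in C and at 0, 0.129 and 4.53 FPKM in Neg (3.92 ± 0.50), with 3 Neg libraries listed at 0. C and Neg did not overlap in either gene.

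Among fibroblast growth factor receptors and targets, Fgfr3 and Fgfr1 rose, 2 of 14 members. As deposited 11 were higher (7 without the 3 sparse Neg libraries) and 0 lower, with a median of 1.77, and after quantile normalization 2 were higher and 1 lower, with a median of 0.54. The share of all genes tested that were higher was 60.1% as deposited and 8.16% after quantile normalization. Fgfr1 was at 5.16, 16.1 and 24.2 FPKM in C and at 0, 1.37 and 6.83 FPKM in Neg, where the highest Neg value, in the olfactory bulb, passed the lowest C value, in the brainstem. Its log2 difference was 2.54 ± 0.36 and 1.30 ± 0.31 after quantile normalization (adjusted p = 0.0101). The targets Etv5, a transcription factor gene, and Spred2, an inhibitor of Ras signalling, did not overlap between groups, but their calls were made as deposited only: Etv5 was at 8.41 to 17.1 FPKM in C and 0 to 3.68 in Neg (quantile adjusted p = 0.0596), and Spred2 at 8.42 to 39.7 and 0 to 4.46 (0.151). The member that was lower after quantile normalization was Etv1, at -1.61 there and -0.13 as deposited.

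Notch and BMP signalling act together in glial fate and in keeping astrocytes differentiated. Of 18 genes for their receptors and targets 8 rose (17 higher as deposited; 8 after quantile normalization and 6 without the 3 sparse libraries; 0 lower), with medians of 1.97 and 0.67. Id3, a target of BMP signalling, was at 53.1 and 19.5 FPKM in C olfactory bulb, 30.1 and 22.9 in C cortex and 29.6 and 13.1 in C brainstem, against 1.61 and 3.86, 0.178 and 0.665, and 1.73 and 0 FPKM in Neg. Groups were apart, with a log2 difference of 3.72 ± 0.41. Hey1, a Notch target, was at 9.84, 17.3 and 27.0 FPKM in C and at 0, 0.840 and 6.53 FPKM in Neg (2.86 ± 0.44), and Hes5, the classical Notch target of neural progenitors, at 4.66, 7.54 and 14.4 FPKM in C. In Neg, Hes5 was listed at 0 in 4 libraries and was at 0.117 and 3.62 FPKM in the olfactory bulb. Notch2, Hes1, Bmpr1b, Id2 and Id4 also rose. Rbpj, the DNA-binding partner of Notch, did not pass the test (0.31, adjusted p = 0.369).

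Transcription factors of glial development rose in 7 of 16 members (16 higher as deposited; 7 after quantile normalization and 6 without the 3 sparse libraries; 0 lower), with medians of 2.31 and 0.90. Sox9, which drives the switch to gliogenesis, was at 17.96, 34.3 and 39.5 FPKM in C and 0.212, 2.86 and 6.10 FPKM in Neg, a log2 difference of 3.20 ± 0.39. Hopx was at 9.34, 33.0 and 41.3 FPKM in C and 0.226, 1.51 and 4.65 FPKM in Neg (3.48 ± 0.44), and Gli3, an effector of hedgehog signalling, at 7.35, 14.1 and 34.2 and at 0.0497, 0.709 and 2.93 FPKM (3.12 ± 0.39). Neither these genes nor Sox2, the progenitor factor that astrocytes keep (2.82 ± 0.38), overlapped between C and Neg. Gli2, Nfix and Rfx4 completed the 7.

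Lipid carriers were among the most abundant transcripts that rose. Apoe, apolipoprotein E, was at 1663 and 543 FPKM in C olfactory bulb, 1205 and 1235 in C cortex and 989 and 881 in C brainstem, against 125 and 129, 94.3 and 13.8, and 10.3 and 8.01 FPKM in Neg. The groups did not overlap and Neg was lowest in the brainstem, and the log2 difference over regions was 4.82 ± 0.54 (3.03 ± 0.34 after quantile normalization; limma adjusted p = 8.12e-05). Clu, clusterin, was at 120, 297 and 872 FPKM in C and at 1.97, 13.5 and 46.6 FPKM in Neg (4.90 ± 0.55), and Lcat, the cholesterol acyltransferase that matures lipoproteins, at 72.4, 101 and 154 and at 0.0823, 2.09 and 8.69 FPKM (5.05 ± 0.45). None of these 3 genes overlapped between C and Neg, which with C higher held for 2362 of all genes tested.

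Fabp7, the brain fatty acid binding protein of progenitors and of olfactory glia, was regional in both populations. It was at 2541 and 1440 FPKM in C olfactory bulb, 177 and 104 in C cortex and 162 and 65.0 in C brainstem, against 587 and 612, 9.65 and 11.7, and 0.217 and 0.162 FPKM in Neg. Neg olfactory bulb thus exceeded C of the other regions, while within each region C was the higher (3.89 ± 0.58 over regions). Of 15 tested lipid carrier and export genes out of 16, 8 rose and 0 fell, with medians of 2.42 and 1.07, and 4 were called after quantile normalization without the 3 sparse libraries. Cholesterol synthesis rose in 7 of 22 genes (20 higher as deposited, 7 after quantile normalization, 4 without the 3 sparse libraries; 0 lower), with medians of 1.89 and 0.58. Fdft1, squalene synthase, was at 6.08, 11.3 and 14.2 FPKM in C and at 0, 0.102 and 1.77 FPKM in Neg, and Sqle, squalene epoxidase, at 10.2, 15.8 and 24.7 and at 0, 1.17 and 3.27 FPKM. The sterol regulators Insig1 (3.07 ± 0.38) and Srebf2 (2.79 ± 0.51) rose too; Srebf2 overlapped between groups and lost its call after every library was rescaled to the same sum (adjusted p = 0.0518). Ebp, the sterol isomerase gene, did not pass the test (0.13, adjusted p = 0.71).

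**Figure D3:**
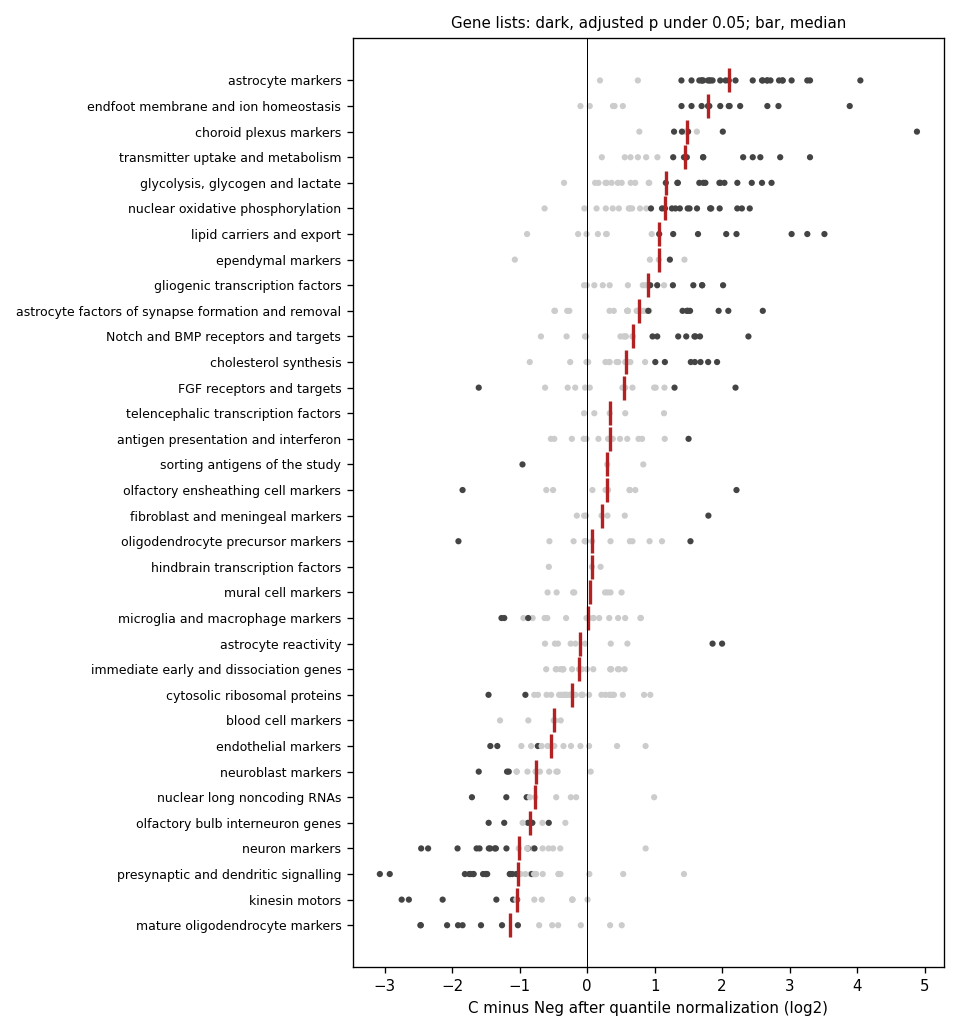
Each row is a gene list, each point a tested member and each red bar the median of the list; the x axis gives C minus Neg after quantile normalization and dark points passed an adjusted p under 0.05. Astrocyte markers lead at a median of 2.10 and mature oligodendrocyte markers are last at -1.14, with microglial markers at 0.01.

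Genes of glycolysis, glycogen and lactate rose in 13 of 25 tested members out of 26 (25 higher as deposited, 13 after quantile normalization, 10 without the 3 sparse libraries; 0 lower), with medians of 2.56 and 1.17. Aldoc, the aldolase form of astrocytes, was at 448 and 182 FPKM in C olfactory bulb, 533 and 523 in C cortex and 460 and 484 in C brainstem, against 35.2 and 28.5, 33.3 and 10.2, and 19.0 and 11.1 FPKM in Neg. Its groups were widely apart, at a log2 difference of 4.27 ± 0.43 (2.59 ± 0.27 after quantile normalization). Both lactate dehydrogenase genes rose: Ldha was at 19.0, 39.0 and 51.4 FPKM in C and at 0, 2.22 and 4.15 FPKM in Neg, and Ldhb at 64.5, 122 and 157 and at 1.53, 8.59 and 35.1 FPKM. The glycogen phosphorylase genes Pygb and Pygm, the phosphofructokinase gene Pfkm (3.85 ± 0.46) and Ppp1r3c, a glycogen targeting subunit, were also among the 13.

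Nuclear genes of oxidative phosphorylation rose in 15 of 28 tested members out of 29 (27 higher as deposited and 15 after quantile normalization, with 0 lower), and in 6 after quantile normalization without the 3 sparse Neg libraries. Medians were 2.66 and 1.15. Ndufs7 of complex I was at 15.98, 48.1 and 65.8 FPKM in C and at 0.362, 1.72 and 5.28 FPKM in Neg (3.96 ± 0.48), and Cyc1, cytochrome c1 of complex III, at 19.2, 41.3 and 50.6 and at 0, 1.91 and 10.7 FPKM (3.60 ± 0.48), without overlap in either gene. Atp5j of ATP synthase overlapped: it was at 63.5 to 144 FPKM in C and at 0 to 73.9 FPKM in Neg, where 2 libraries were listed at 0, and it was not called after quantile normalization (adjusted p = 0.187).

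Cytosolic ribosomal protein genes, whose reads are shared with many pseudogenes, did not follow. Of 30 tested members out of 34, 19 were higher as deposited, and 0 lower, beside 60.1% of all genes tested that were higher. After quantile normalization 0 were higher and 2, Rpl30 and Rpl37, were lower, and without the 3 sparse Neg libraries 2 were higher as deposited and 0 called after quantile normalization. The medians were 1.13 as deposited and -0.22 after quantile normalization.

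Secreted and matrix proteins that astrocytes use at synapses rose in 8 of 24 tested members out of 25 (22 higher as deposited, 8 after quantile normalization and 8 without the 3 sparse libraries; 0 lower), with medians of 2.14 and 0.77. Sparcl1, hevin, which bridges pre- and postsynaptic adhesion molecules, was at 1095 and 687 FPKM in C olfactory bulb, 818 and 1301 in C cortex and 850 and 1089 in C brainstem, against 116 and 110, 137 and 59.9, and 47.1 and 36.02 FPKM in Neg. The groups did not overlap, with a log2 difference of 3.65 ± 0.36 and 1.95 ± 0.23 after quantile normalization. The proteoglycan genes Bcan, at 45.6, 77.1 and 114 FPKM in C and 0.502, 3.00 and 12.4 FPKM in Neg, and Ncan, at 40.4, 141 and 250 and at 0.0732, 10.3 and 24.3 FPKM, rose as well. Ncan was lowest in C brainstem, at 40.4 and 43.1 FPKM. The others that rose were Ptprz1, Sparc, Gpc5, Gas6 and its receptor gene Axl. The thrombospondin genes Thbs1 and Thbs2, whose proteins induce synapses, were not called (0.49 and 0.32 as deposited; adjusted p = 0.0967 and 0.375).

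Genes of astrocyte reactivity were sparse. Only 10 of 20 were tested, 19 being matched, and Gfap and Vim rose, while as deposited 5 were higher and 0 lower. The list's median was 0.87 as deposited and -0.10 after quantile normalization. Vim, vimentin, was at 42.9 and 21.6 FPKM in C olfactory bulb, 9.45 and 7.94 in C cortex and 30.3 and 30.7 in C brainstem, against 5.32 and 4.34, 0.320 and 0.305, and 0.876 and 0 FPKM in Neg. In C the cortex was thus lowest, and no C library fell into the Neg range (3.28 ± 0.40). Serpina3n, an acute phase gene of reactive astrocytes, overlapped between groups and was called as deposited only (1.44 ± 0.38; quantile adjusted p = 0.538). Osmr, Cp, Hspb1, Nes and S100a10 did not pass the test on either scale.

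The 22 genes that fell in C included genes of neuronal signalling, transport and myelin, and 12 met the naming rule. The other 10 were 1810022K09Rik, A2ml1, C030034L19Rik, Clvs1, Far2, Gpm6a, Morf4l1, Syn3, Sytl5 and Zc3h11a. Rapgef4, a cyclic AMP-activated exchange factor of neurons (chromosome 2, 71981240 to 72257474), was at 12.4 and 12.1 FPKM in C olfactory bulb, 93.1 and 86.4 in C cortex and 12.8 and 26.0 in C brainstem, against 36.5 and 51.7, 352 and 232, and 33.4 and 39.1 FPKM in Neg. Regions differed more than populations, so that C cortex lay above Neg of the olfactory bulb and the brainstem, but in each region C was lower. The log2 difference was -1.45 ± 0.37 (limma adjusted p = 0.00309) and -3.07 ± 0.27 after quantile normalization (1.45e-05). Cdr1 was the gene of the 12 without overlap, at 170, 229 and 283 FPKM in C and at 300.3, 601 and 936 FPKM in Neg (-1.42 ± 0.34). Its locus on the X chromosome (61184005 to 61185558) is also transcribed on the opposite strand into a circular RNA, and libraries without strand information cannot tell these transcripts apart.

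Sh3gl3, an endophilin gene, was at 1.93, 6.54 and 12.8 FPKM in C and at 5.65, 14.4 and 51.9 FPKM in Neg (-1.46 ± 0.41). The kinesin heavy chain genes Kif5b and Kif5a carry cargo along axons. Kif5b was at 43.9 to 73.7 FPKM in C and 66.3 to 229 FPKM in Neg (-1.19 ± 0.36), and Kif5a at 36.6 to 499.7 FPKM in C and 135 to 1112 FPKM in Neg (-1.03 ± 0.39, adjusted p = 0.0303). The ranges of all 3 genes overlapped between C and Neg. Their relative Kif5c was not called as deposited (-0.62 ± 0.40, adjusted p = 0.18) and lay at -2.14 after quantile normalization. Celf4, Shtn1, Ppfia2, Rph3a and Pkp4, whose products act in neuronal RNA binding, axon growth, the presynaptic zone, vesicle release and junctions, were between -1.07 and -0.90. The calls as deposited of Kif5a, Celf4, Shtn1, Rph3a, Pkp4 and the myelin gene Ermn were lost under 10 to 16 of 26 other settings. That of Ppfia2 was lost under 7, whereas Cdr1 lost its call under 1, Rapgef4, Kif5b and Mobp under 2 and Sh3gl3 under 3. Libraries and regions were left out on the deposited values only.

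**Figure D4:**
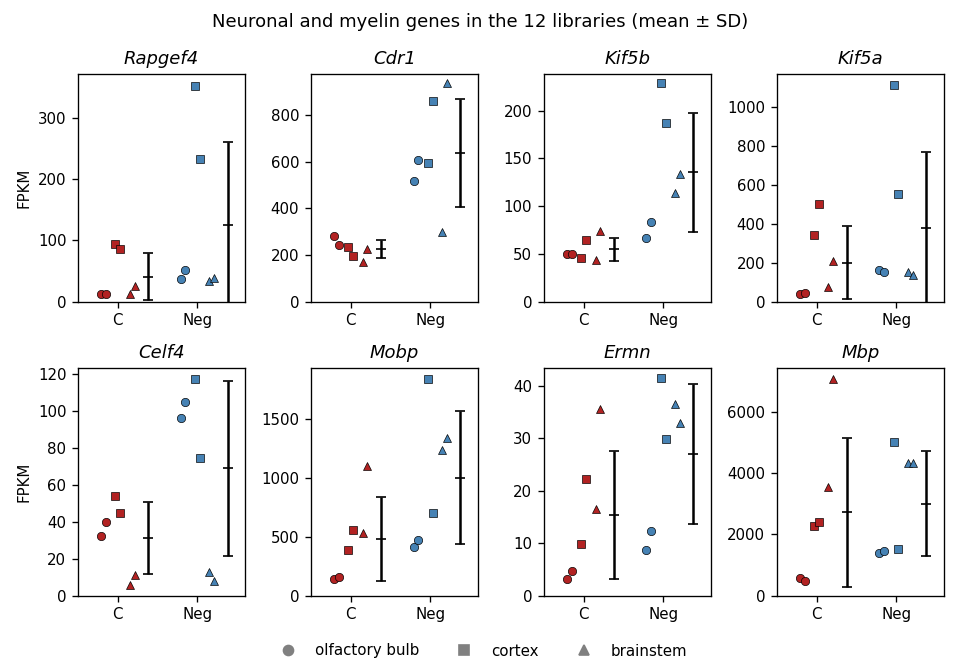
FPKM of 8 neuronal and myelin genes in each library, C left and Neg right, with the region as the symbol and mean ± SD (n = 6) as bars. Within a region C tends to lie lower, but regions differ so much that the ranges of C and Neg overlap in every panel except Cdr1, at 170 to 283 in C against 300.3 to 936 FPKM in Neg.

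As a list, neuron markers were split by scale. Of 21 tested members out of 22, 1 was higher and 1 lower as deposited, and 0 were higher and 12 lower after quantile normalization, with medians of -0.002 and -1.01; without the 3 sparse Neg libraries 12 were lower after quantile normalization. Their summed level was 176 to 693 FPKM in C and 139.6 to 834 FPKM in Neg, and 0 members were listed at 0 in all libraries of a group. Snap25, a protein of vesicle fusion, was at 64.8, 115 and 146 FPKM in C and at 64.4, 119 and 241 FPKM in Neg. Its lowest and median values were thus similar and its highest was in Neg. The log2 difference was -0.15 ± 0.36 as deposited and -1.92 ± 0.29 after quantile normalization. Camk2a, the kinase of forebrain excitatory neurons, was at 54.2 and 53.7 FPKM in C olfactory bulb, 302 and 226 in C cortex and 3.72 and 29.4 in C brainstem, against 139 and 144, 380 and 218, and 17.9 and 17.98 FPKM in Neg. Its groups overlapped, and it was called after quantile normalization (-2.36, adjusted p = 0.00088) but not as deposited (-0.72, adjusted p = 0.151). The member that was higher as deposited was Thy1 (2.11 ± 0.54), which was not called after quantile normalization (adjusted p = 0.188). Presynaptic and dendritic genes showed 3 higher and 2 lower of 30 as deposited and 0 higher and 16 lower after quantile normalization, at medians of 0.18 and -1.02, and kinesins 5 higher and 2 lower of 13, then 0 and 6. Without the 3 sparse Neg libraries the lower counts as deposited were 5 for presynaptic genes and 3 for kinesins, and 17 and 4 after quantile normalization. Of 14 neuroblast and 8 olfactory bulb interneuron genes 0 were lower as deposited, while 3 and 5 were lower after quantile normalization (0 and 4 without the sparse libraries).

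Mature oligodendrocyte genes remained abundant in both populations. Mbp, myelin basic protein, was the transcript with the largest share of FPKM in all 6 Neg libraries, 2.63% to 19.3%, and also in C brainstem replicate 2, at 6.37%. It was at 575 and 471 FPKM in C olfactory bulb, 2264 and 2423 in C cortex and 3550 and 7102 in C brainstem, against 1379 and 1461, 5032 and 1538, and 4344 and 4339 FPKM in Neg. The highest value of the 12 was thus in C, and the difference was not called as deposited (-0.49 ± 0.33, adjusted p = 0.192) but lay at -1.91 ± 0.36 after quantile normalization (0.00247). Mobp (chromosome 9, 120149707 to 120181484), a myelin protein gene whose promoter is printed above, fell: it was at 137 and 159 FPKM in C olfactory bulb, 392 and 562 in C cortex and 534 and 1106 in C brainstem, against 414 and 477, 1849 and 705, and 1241 and 1340.5 FPKM in Neg. C was lower than Neg in each region, though the ranges across regions overlapped (-1.20 ± 0.33). Of the 14 markers 2 were higher, Cnp and Trf, and 2 lower, Mobp and Ermn, as deposited, and 0 and 8 after quantile normalization (without the 3 sparse libraries 0 and 4 as deposited and 0 and 6 after quantile normalization), with a summed level of 848 to 8846 FPKM in C and 2003 to 7311 FPKM in Neg. The part of oligodendrocyte RNA in either population was not tested further.

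Of 8 choroid plexus markers 5 rose with the astrocyte genes in C. All 8 were higher as deposited, at a median of 2.68, and 5 after quantile normalization, at a median of 1.48. Ttr was at 29.8 and 399.8 FPKM in C olfactory bulb, 5446 and 2483 in C cortex and 23601 and 1518 in C brainstem, against 0.306 and 0.288, 364 and 74.3, and 7.48 and 16.7 FPKM in Neg. Within each region C was higher, while C olfactory bulb replicate 1 lay below Neg cortex, and in C brainstem replicate 1 Ttr took 17.0% of all FPKM. The log2 difference was 6.61 ± 0.76 (limma adjusted p = 6.63e-06) and 4.89 ± 0.65 after quantile normalization. Enpp2, a secreted lipid phosphodiesterase, was at 36.7, 297 and 1495 FPKM in C and 5.36, 15.3 and 89.0 FPKM in Neg, and the channel gene Kcnj13 at 0.117, 12.9 and 55.4 and at 0, 0.337 and 3.60 FPKM. Both overlapped between groups, and Kcnj13 was not called after quantile normalization (adjusted p = 0.0541). Summed over the list, C libraries held 67.4 to 25347 FPKM and Neg libraries 11.3 to 468 FPKM, with C olfactory bulb replicate 1 lowest among the C libraries. Without the 3 sparse Neg libraries 2 of 8 were higher as deposited and 1 after quantile normalization. Over all genes tested, calls in either direction then fell from 6931 to 2205 as deposited. After quantile normalization they fell from 1715 to 821. The part of choroid plexus RNA in the differences of genes that astrocytes share with it, such as Clu, was not tested.

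**Figure D5:**
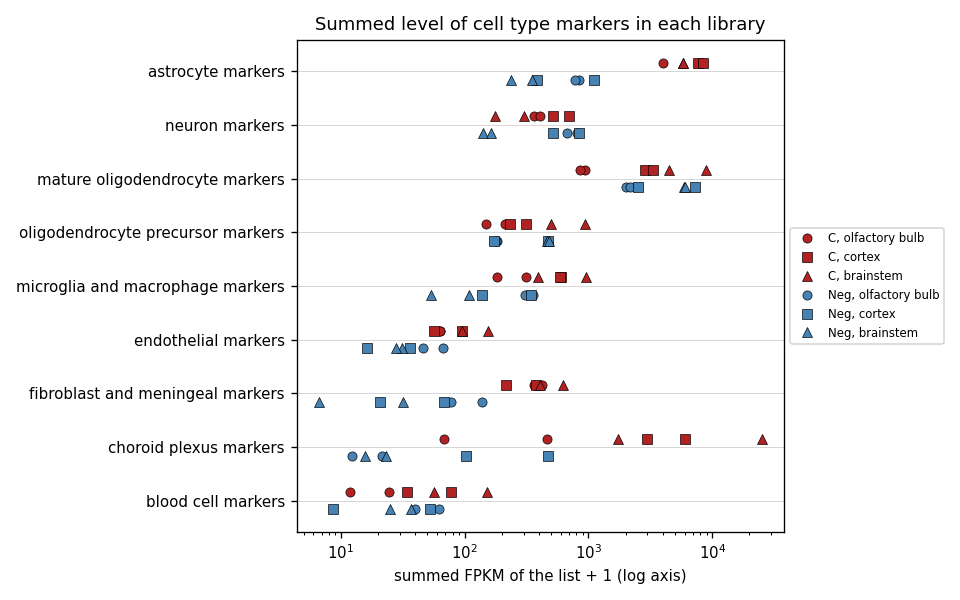
Summed FPKM of 9 marker lists in each library on a log axis, C in red above Neg in blue, with the region as the symbol. Astrocyte sums separate the populations completely, 4024 to 8395 in C against 234 to 1116 in Neg, while neuron and mature oligodendrocyte sums overlap and choroid plexus sums range from 67.4 to 25347 in C.

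Precursors of oligodendrocytes share several genes with astrocytes. Of their 13 markers 11 were higher as deposited and 0 lower, with a median of 1.32, but after quantile normalization 1 was higher, Olig2, and 1 lower, Bcas1, with a median of 0.08. Among all genes tested 60.1% were higher as deposited, with a median of 0.97. Olig2, a transcription factor gene of the oligodendrocyte lineage that some astrocytes also express, was at 8.23, 13.6 and 24.3 FPKM in C and at 0.198, 0.643 and 4.31 FPKM in Neg, without overlap (2.92 ± 0.41). Sox10, absent from astrocytes, was at 5.23 to 15.5 FPKM in C and 0.0965 to 4.54 FPKM in Neg. Its groups did not overlap either, yet its call was made as deposited only (2.02 ± 0.38; quantile adjusted p = 0.133). The list summed to 149 to 940.3 FPKM in C and 171 to 477 FPKM in Neg, and its part in the other differences was not tested. Without the 3 sparse Neg libraries 4 markers were higher as deposited, and after quantile normalization 0 were higher and 1 lower.

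Immune and vascular markers were measurable in both populations, and few rose. As deposited 60.1% of all genes tested were higher in C, and counts on that scale with no library left out are read beside this share. Of 18 microglia and macrophage markers 9 were higher as deposited, and after quantile normalization 0 were higher and 3 lower (0 and 3 without the 3 sparse libraries), with medians of 1.39 and 0.01. They summed to 181 to 958 FPKM in C and 53.0 to 355 FPKM in Neg, with 0 members at 0 in all libraries of a group. C1qc, a complement gene of microglia, was at 51.2 and 14.8 FPKM in C olfactory bulb, 85.6 and 69.7 in C cortex and 38.9 and 119 in C brainstem, against 40.5 and 25.3, 6.97 and 2.45, and 5.27 and 3.70 FPKM in Neg. In the olfactory bulb C and Neg overlapped, and in the other regions C was higher (2.46 ± 0.60 over regions; quantile adjusted p = 0.283). Endothelial markers showed 5 higher of 14 as deposited and 0 higher and 3 lower after quantile normalization, mural cell markers 6 of 8 tested and then 0, and fibroblast and meningeal markers 7 of 7 tested and then 1, Ptgds. Without the 3 sparse Neg libraries the counts higher as deposited were 0 for microglia, and 1 each for endothelial, mural and fibroblast markers, and after quantile normalization 0 for each of these lists. Ptgds, a prostaglandin synthase of meninges and glia, was at 206, 364 and 582 FPKM in C and 2.56, 42.4 and 132 FPKM in Neg (3.56 ± 0.58).

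Ependymal markers showed 4 of 5 tested higher as deposited and then 1, Rarres2, after quantile normalization (0 and 0 without the 3 sparse Neg libraries), with 5 of the 8 members listed at 0 in all 6 Neg libraries. Of 10 olfactory ensheathing cell markers 6 were higher as deposited, and after quantile normalization 1 was higher, Fabp7, and 1 lower; without the sparse libraries 2 were higher as deposited, then 0 higher and 1 lower. Blood cell genes did not pass the test on either scale in any of 5 tested members, at sums of 10.8 to 150.3 FPKM in C and 7.56 to 61.4 FPKM in Neg. Immediate early and dissociation genes, which are induced when tissue is taken apart, were higher in 12 of 19 members as deposited (1 without the 3 sparse Neg libraries) and in 0 after quantile normalization, with medians of 1.22 and -0.12. The share of all genes tested that were higher as deposited was 60.1%. Dusp1 was at 6.58 and 39.2 FPKM in C olfactory bulb and 35.4 to 79.6 FPKM in the other C libraries, against 2.16 to 16.6 FPKM in Neg. Genes of antigen presentation and interferon gave 11 of 15 tested higher as deposited (2 without the sparse libraries) and then 1, the class I gene H2-K1, at 13.5, 17.5 and 42.8 FPKM in C and 0, 1.56 and 16.7 FPKM in Neg. The call of H2-K1 as deposited was lost without the sparse libraries. Proliferation genes were nearly silent: 1 of 10 was tested, and the list summed to 4.30 to 8.31 FPKM in C and 0.0312 to 5.09 FPKM in Neg. Of 9 tested nuclear long noncoding RNAs 2 were higher as deposited, while Meg3, Rian and Peg13, RNAs that are abundant in neurons, were lower after quantile normalization.

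The RNAs of the antigens used in sorting did not rise on both scales. Cd63, a tetraspanin of late endosomes, was at 17.3 and 9.05 FPKM in C olfactory bulb, 15.5 and 14.2 in C cortex and 21.6 and 6.02 in C brainstem, against 2.32 and 3.85, 2.01 and 4.03, and 0.196 and 1.49 FPKM in Neg. All C libraries lay above all Neg libraries, with a log2 difference of 2.22 ± 0.40 (adjusted p = 0.000229) that was not called after quantile normalization (0.83 ± 0.37, adjusted p = 0.141). Itgav, integrin alpha V, was at 8.31, 10.4 and 17.3 FPKM in C and at 0.607, 3.02 and 6.89 FPKM in Neg, again apart, with 1.70 ± 0.38 as deposited and 0.30 ± 0.27 after quantile normalization (0.481). Tfrc, the transferrin receptor, overlapped between groups: it was at 4.09, 4.98 and 9.19 FPKM in C and 0.810, 4.67 and 7.49 FPKM in Neg. Its difference of 0.40 ± 0.36 did not pass the test as deposited (0.337) and lay at -0.96 ± 0.30 after quantile normalization (0.0421).

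The regions differed in how many genes separated C from Neg. With 2 libraries against 2 in each region and the spread shared over the 6 groups, 376 genes (3.27%) were higher in C and 12 (0.104%) lower in the olfactory bulb, 3138 (27.3%) and 22 (0.191%) in the cortex, and 6465 (56.3%) and 9 (0.0783%) in the brainstem. With the spread shared over all 36 libraries of the series, the called genes of both directions numbered 1, 572 and 3768. The median log2 difference over all genes was 0.51, 0.99 and 1.46, in the same order as the sparseness of the Neg libraries, whose counts of genes at 1 FPKM were 7224 and 7462 in the olfactory bulb, 6344 and 3697 in the cortex and 2872 and 2103 in the brainstem. After quantile normalization the counts were 41 (0.357%) and 27 (0.235%) in the olfactory bulb, 210 (1.83%) and 139 (1.21%) in the cortex and 438 (3.81%) and 264 (2.3%) in the brainstem. Whether the sparse libraries set this order was not tested. The 4 markers were higher in C in each region, Slc1a2 by 2.88, 2.72 and 3.97 on the log2 scale in olfactory bulb, cortex and brainstem, and Mlc1 by 4.20, 4.24 and 4.03.

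A test of the difference between regions called few genes. As deposited 6 of 11490 genes (0.0522%) had an adjusted p of 0.0495 in limma, with 2010 at an unadjusted p under 0.05, and after quantile normalization 0 (0%), with 985 unadjusted. Leaving out 1 library at a time gave 0 to 2 genes. Dao, D-amino acid oxidase of hindbrain astrocytes, was at 13.1 and 21.5 FPKM in C brainstem and at or under 0.0462 FPKM in the other 4 C libraries, against 0.874 and 0 FPKM in Neg brainstem and 0 in the other 4 Neg libraries. Sfrp5, a secreted Wnt inhibitor, was at 7.999 and 10.6 FPKM in C brainstem, and at or under 0.479 FPKM in all other libraries. Both genes were thus highest in C of a single region. Opalin, a myelin gene, ran in opposite directions: it was listed at 0 in both C olfactory bulb libraries against 5.96 and 6.50 FPKM in Neg, and was at 3.65 and 7.97 FPKM in C brainstem against 0 and 0.289 FPKM in Neg.

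Pura, a nucleic acid binding protein gene, was at 11.7 and 6.55 FPKM in C olfactory bulb and 8.32 and 10.6 in C brainstem but listed at 0 in both C cortex libraries, against 1.27 and 6.26, 0 and 0, and 3.79 and 4.50 FPKM in Neg of olfactory bulb, brainstem and cortex. Rpl29 was listed at 0 in the 4 Neg libraries of cortex and brainstem, against 31.2 to 95.7 FPKM in C of those regions. In the olfactory bulb Rpl29 was at 35.3 and 15.4 FPKM in C against 19.8 and 69.0 FPKM in Neg; reads of this ribosomal gene are shared with pseudogenes. The sixth gene was Xist, whose values by library are given above. Crym, a thyroid hormone binding protein gene, was named by the rule but did not pass (adjusted p = 0.0822): it was at 8.72 and 10.1 FPKM in C cortex and at or under 2.87 FPKM in the other libraries. Telencephalic transcription factor genes were higher in C in 5 of 5 tested members as deposited and in 0 after quantile normalization, and of 16 hindbrain factor genes 3 were tested and 0 called. As deposited 60.1% of all genes tested were higher in C.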

How the data were processed

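RNA of sorted brain cells was made into unstranded libraries (NuGEN Ovation V2, primed with random and oligo d(T) primers, then an Illumina TruSeq DNA preparation) and sequenced on a HiSeq instrument, per the labels' protocols. Base calls came from bcl2fastq 1.8.3, and TopHat, Cufflinks and build mm10 are named in the submitters' processing notes; their other settings are not stated there. The deposited tables give the authors' FPKM per locus with its interval and a deposited coverage value. No read counts were used; the interval half-width near 10 FPKM was 12.2% to 14.1% in C and 13.8% to 16.5% in Neg, which covers the authors' estimate of counting error only.

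Of the 63241 rows of each table, 52534 (83.1%) were matched to GENCODE genes by span (overlap score at least 0.5, lead 0.1), and FPKM was summed per gene; the 11490 genes reaching 1 FPKM in 2 of the 12 libraries entered the tests. Tests used limma 3.58.1 in R 4.3.3 with a trended prior on log2(FPKM + 1), so folds of low genes are understated, with region as an additive block (8 residual degrees of freedom) or 6 groups (6), and Benjamini-Hochberg adjustment over all genes tested at 0.05. The test was run on simulated data with genes changed evenly in both directions. Those data held no shift of whole libraries and no sparse libraries, so they cannot show how the test behaves under either. Named genes were the 4 markers, Aldh1l1, Gfap, the 3 sorting antigens, up to 12 protein-coding genes in each direction called on both scales with the same sign in all 3 regions and a mean of at least 5 FPKM in the higher population, up to 4 members of each list, and the 6 smallest interaction p-values. Mbp, Snap25, Kif5c, Clic6, Xist and the Y-linked genes, and list members named only by their call, were chosen after their values were seen. Some genes are not reported here, though they count in the tests and lists. The members and lists were chosen with earlier results of these data known. Alternatives were quantile normalization, rescaling to a sum of 1000000, pseudocount 0.1, other filters, the highest row per gene, all 36 libraries in the fit, no region block, array weights, a minimum log2 difference of 1, and leaving out libraries or regions.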

Additional observations from a re-analysis of the deposited data

Results flagged for a closer look

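A single library lay far from the other 5 of its group, by Dixon's test at the 95% level, in 20 of 214 groups tested. All 20 were values of named genes. The nominal rate of about 1 in 20 groups is no guide here. Each group pools the brain regions, and the groups draw on the same libraries. In C, olfactory bulb replicate 2 was low for Aldh1l1 (8.15 FPKM), Gpr37l1 (41.2 FPKM), Slc9a3r1 (8.41 FPKM), Fdft1 (6.08 FPKM), Aldoc (182 FPKM) and Rpl8 (19.7 FPKM). C olfactory bulb replicate 1 was low for the stress genes Hspa1a (1.63 FPKM) and Dusp1 (6.58 FPKM). C cortex replicate 2 was high for Spred2 (39.7 FPKM), C brainstem replicate 1 for H2-K1 (42.8 FPKM), and C brainstem replicate 2 was listed at 0 for Grcc10.

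In Neg, olfactory bulb replicate 2 was high for Ddt (13.8 FPKM), Hes5 (3.62 FPKM) and Rarres2 (1.24 FPKM), and olfactory bulb replicate 1 for Crym (2.87 FPKM). Neg cortex replicate 1 was high for Fdft1 (1.77 FPKM) and for the choroid plexus genes Kcnj13 (3.60 FPKM) and Kl (4.16 FPKM). Neg brainstem replicate 1 was low for Tfrc (0.810 FPKM) and high for Dao (0.874 FPKM).

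The difference between C and Neg differed between regions by the limma interaction test for Rpl29, Opalin, Pura, Sfrp5, Dao and Xist, each at an adjusted p of 0.0495. In olfactory bulb, cortex and brainstem the log2 differences were -0.64, 6.00 and 5.01 for Rpl29, -2.85, 1.31 and 2.51 for Opalin and 1.27, -2.36 and 3.38 for Pura. For Sfrp5 they were -0.11, 0.34 and 3.35, for Dao 0.03, 0.00 and 3.70, and for Xist -0.62, 3.55 and 3.65. After quantile normalization 0 of these genes passed.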

How the results depend on the processing

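Precision is limited on the Neg side, where 3 libraries hold under 5000 genes at 1 FPKM and many values are listed at 0; the part of depth in this was not tested. The 6931 genes called as deposited became 1715 after quantile normalization, 1691 after rescaling, 1097 with a minimum log2 difference of 1, 3293 without the brainstem and 2205 without the 3 sparse Neg libraries, an alternative chosen after seeing the data; leaving out 1 library gave 5687 to 7231. The 1715 genes called after quantile normalization became 821 without the 3 libraries, 507 without the cortex and 1008 without the brainstem, and 1130 to 1732 with 1 library left out. In olfactory bulb, cortex and brainstem the 388, 3160 and 6474 called genes became 68, 349 and 702 after quantile normalization and 1, 572 and 3768 with all 36 libraries in the fit. The 6 genes of the region test became 0 after quantile normalization, 22 with pseudocount 0.1 and 0 to 2 with 1 library left out. The difference in genes detected ranged from 3732 to 4804 with 1 library left out. The cause of these shifts was not tested.

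Of 2697 recomputed values of 104 named genes, 2426 kept direction and call, 239 lost a call, 16 gained one and 16 reversed. In 53 genes no value was lost or reversed. These calls are those as deposited, and libraries or regions were left out on that scale only. Tfrc reversed to -0.96 after quantile normalization, -1.10 after rescaling and -0.039 without the 3 Neg libraries, while with the highest row per gene it was called higher in C at 1.20; Snap25 reversed to 0.092 without the olfactory bulb and Laptm5 to -0.20 without the 3 Neg libraries. Opalin reversed to -0.71 after quantile normalization, -0.82 after rescaling, -0.17 without the cortex, -0.77 without the brainstem and -0.93 without the 3 Neg libraries, and ranged from -0.070 without C brainstem replicate 2 to 0.73 with 1 library left out. Pura reversed to -0.093 after quantile normalization, -0.54 without the brainstem and -0.14 without the 3 Neg libraries, and Crym to -0.16 after quantile normalization and -0.41 after rescaling. Of 1820 recomputed list counts 256 moved by over 1.5 times. No paired analysis was possible because the labels give no replicate numbers.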

Other observations

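In 2362 of the 11490 genes tested all 6 C libraries lay above all 6 Neg libraries. In 2 genes all 6 Neg libraries lay above all 6 C libraries. The shares of genes called as deposited, 60.1% higher and 0.2% lower, are a different measure. Of the genes tested, 180 were listed at 0 in all 6 Neg libraries and 17 in all 6 C libraries. On all 3 scales, deposited, quantile normalized and rescaled, 819 genes were higher and 20 lower in C. Rpl37rt, a ribosomal retrogene, was the single gene called in opposite directions, at 0.93 as deposited (limma adjusted p = 0.0449) and -0.78 after quantile normalization (0.037).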
